A study of Mus musculus with 6 samples.

Results

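Hox genes encode homeodomain transcription factors that give cells an address along the head-to-tail axis of the embryo. In the mouse they lie in 4 clusters, Hoxa, Hoxb, Hoxc and Hoxd, and are numbered 1 to 13 by their place within a cluster. Genes of low number are used towards the head and genes of high number towards the tail, and genes of equal number in different clusters (paralogs) are copies of one ancestral gene. Stromal cells of adult organs commonly keep part of the Hox pattern they had in the embryo, and the posterior genes also pattern the urogenital tract.

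The Hox genes were followed here in cells of the Gli1 lineage from the adult mouse ovary. Members were chosen by gene symbol alone, as every probe set with exactly 1 symbol of the form Hox, a cluster letter and a number, dim probe sets included. The family itself was selected on results of these data, with the differences between the groups known, so differences between the groups are given as a description, and the calls of the fit over all probe sets are printed for completeness, with nothing read from them. The rule found 48 probe sets for 33 genes among 45037 probe sets that are no array controls. Hox genes without such a probe set are not analysed here.

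All samples came from female 129S6/SvEvTac mice aged 2 months that carried both Gli1-CreERT2 and Rosa-LSL-tdTomato. In such mice tamoxifen switches on a lasting red label in any cell that expresses Gli1, a target of hedgehog signalling, at that time. The group the titles call Mesonephros_theca (n = 3) was labelled in the fetus, every 2 days from E12.5 to E16.5, and the group called Ovary_theca (n = 3) after birth, on days 1 to 3, through the lactating dam. Labelled cells were sorted from adult ovaries and their RNA was hybridised to 1-colour arrays. Gli1 marks cells by activity at the time of tamoxifen, so origin and time of labelling changed together and cannot be told apart. The labels do not say whether replicates came from separate animals, so the spread between samples may be technical. In these bulk samples fewer cells of a type and less RNA per cell cannot be told apart either.

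Every array had been scaled to the same trimmed mean signal before deposit. Over all probe sets the ovary-derived arrays correlated with each other at 0.963 to 0.973 and the mesonephros-derived arrays at 0.844 to 0.896. Relative to the mean of the ovary-derived arrays, poly-A spike-in signals were at least 13.8-fold on mesonephros-derived replicates 1 and 2 and 2.25-fold on replicate 3, with the single ovary-derived arrays at 0.619 to 1.62. The 3′ to 5′ signal ratio of Gapdh was 5.29, 3.48 and 2.63 against 1.94 to 2.86. That of Actb was not raised, at 0.887, 0.929 and 0.894 against 0.92 to 1.01. Theca markers were present in both groups. Cyp17a1, the theca androgen enzyme, read 3346 to 10577 against 619 to 1413 without overlap. The other theca markers found overlapped. Cyp11a1, the side chain cleavage enzyme, read 2371 to 9988 against 1915 to 2674. Star read 675 to 2092 against 485 to 764, and Hsd3b1 13295 to 18914 against 9471 to 16815. Nr5a1 had a lower mean in mesonephros-derived cells, at 833 to 2062 against 1595 to 1998. Of 6 smooth muscle markers 5 were higher without overlap, as were 8.22% of all probe sets. The 6 had a summed signal of 45864 to 54908 against 17437 to 20328. The part of any of these in the Hox values was not tested. Values with the spike signal as a covariate are given as a description. Every mesonephros-derived array had a higher spike signal than any ovary-derived one, so the covariate cannot separate spike signal from group.

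A probe set is called dim here where its mean lies below a signal of 99.4, the 40th percentile of all probe sets, which served as a floor because no detection calls were used. The mean over the 6 arrays lay above this floor for 27 of the 48 Hox probe sets, which represent 19 genes. For 15 probe sets every array lay above it and for 14 every array lay below it. By cluster, 5 of 16 Hoxa, 6 of 11 Hoxb, 10 of 11 Hoxc and 6 of 10 Hoxd probe sets had means above the floor. Levels of different probe sets are not compared with each other, since each binds its own target with its own strength.

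Differences are mesonephros-derived minus ovary-derived on the scale log2(signal + 16), with standard errors (SE) from a limma fit over all probe sets. For dim genes this scale makes a change look smaller than it is. Of the 48 Hox probe sets 34 had a positive and 14 a negative difference, with a median of 0.47 against −0.05 over all probe sets. The share of each sign differed by cluster. The difference was positive for 11 of 16 Hoxa, 10 of 11 Hoxb and 10 of 11 Hoxc probe sets, with medians of 0.46, 0.47 and 0.56, and for 3 of 10 Hoxd probe sets, with a median of −0.32. The Hoxa median was −0.01 without mesonephros-derived replicate 2, and the median over all Hox probe sets was then 0.23, or 0.20 without replicate 3.

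By position along the axis, the anterior genes (paralog numbers 1 to 3) had a median of 0.21, the central genes (4 to 8) one of 0.48 and the posterior genes (9 to 13) one of 0.47. The anterior median was −0.03 without mesonephros-derived replicate 2. The posterior one was 0.02 with the spike covariate. It was −0.87 over probe sets above the 60th percentile, where only Hoxc10, Hoxd9 and Hoxd10 remained. Across the 48 probe sets the difference showed no monotone relation to paralog number (Spearman's rho 0.01, Pearson's r −0.05, across probe sets of the same 6 arrays, as a description). Within clusters rho was 0.01 for Hoxa, −0.06 for Hoxb, 0.36 for Hoxc and 0.50 for Hoxd.

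None of the Hox probe sets passed an adjusted p of 0.05 in limma with Benjamini-Hochberg adjustment over all 45037 probe sets, where 2 probe sets, or 0.00444%, passed. The smallest adjusted p of a member was 0.207, for Hoxd10. At an unadjusted p of 0.05, 6 Hox probe sets were higher and 4 lower, and over all probe sets 2195 were higher and 2901 lower. The 3 mesonephros-derived arrays lay wholly above the 3 ovary-derived ones for 10 Hox probe sets, against 8.22% of all probe sets, and wholly below for 5, against 10.6%. These counts describe the contrast with which the family was chosen, and nothing further is read from them.

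**Figure D1:**
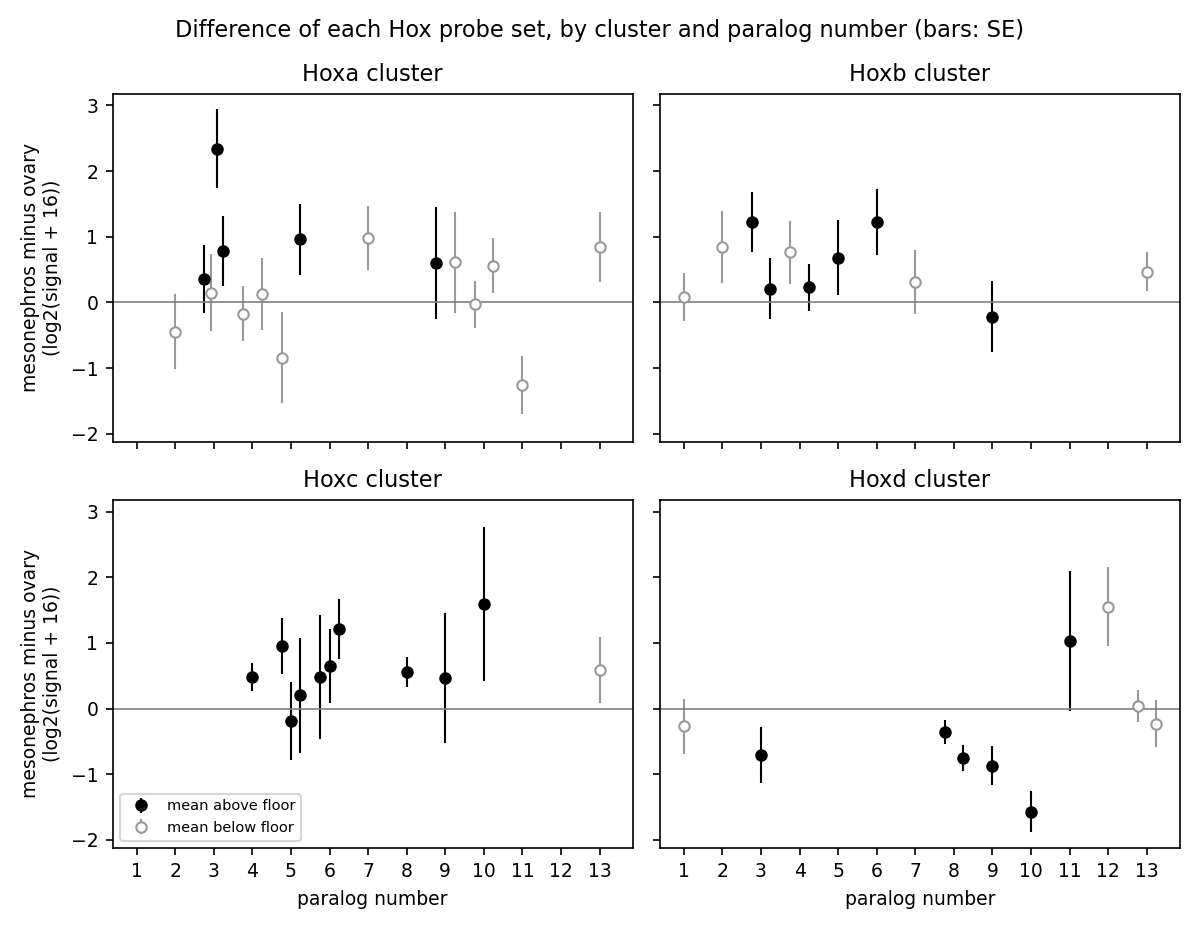
Difference of each Hox probe set between mesonephros-derived and ovary-derived cells (y axis, log2(signal + 16), bars SE, 3 arrays per group) against its paralog number (x axis), with 1 panel per cluster. Filled points have a mean above the floor and open points a mean below it. Hoxd3, Hoxd8, Hoxd9 and Hoxd10 lie below 0 and all but 1 of the Hoxb and all but 1 of the Hoxc points lie above it.

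The 5 of 48 Hox probe sets that lay wholly below were about the share of all probe sets, 10.6%. As a description, 4 of them read 3 neighbouring genes of the Hoxd cluster. Hoxd8, Hoxd9 and Hoxd10 lie side by side in RefSeq, and all 4 of their probe sets read lower in mesonephros-derived cells. Posterior Hoxd genes are known for patterning the limb and the urogenital region. The RefSeq promoter table (assembly GRCm38.p6) holds all 3 genes, and the 250 bases before each listed start are shown because these neighbours differed the same way, with Hoxc4, a gene whose signal differed the other way, for contrast. The windows are chr2:74704365-74704614 for Hoxd8, chr2:74697513-74697762 for Hoxd9, chr2:74691641-74691890 for Hoxd10 and chr15:103034145-103034394 for Hoxc4, all on the + strand and written 5′ to 3′. Capitals mark matches to the motifs listed after them.
Hoxd8: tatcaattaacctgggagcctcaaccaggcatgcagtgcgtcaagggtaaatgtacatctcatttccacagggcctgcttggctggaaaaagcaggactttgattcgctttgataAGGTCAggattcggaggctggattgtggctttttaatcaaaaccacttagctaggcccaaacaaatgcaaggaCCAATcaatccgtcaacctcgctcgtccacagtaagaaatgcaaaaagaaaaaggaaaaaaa
Hoxd9: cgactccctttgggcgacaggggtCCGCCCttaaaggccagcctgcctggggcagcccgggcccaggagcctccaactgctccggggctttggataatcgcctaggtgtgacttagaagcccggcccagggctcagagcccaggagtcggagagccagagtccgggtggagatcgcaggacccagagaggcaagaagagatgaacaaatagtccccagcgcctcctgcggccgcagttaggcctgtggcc
Hoxd10: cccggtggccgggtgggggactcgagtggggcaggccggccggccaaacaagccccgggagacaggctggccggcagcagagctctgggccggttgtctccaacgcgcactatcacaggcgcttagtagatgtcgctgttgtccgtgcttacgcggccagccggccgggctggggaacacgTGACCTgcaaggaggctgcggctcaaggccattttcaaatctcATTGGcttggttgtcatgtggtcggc
Hoxc4: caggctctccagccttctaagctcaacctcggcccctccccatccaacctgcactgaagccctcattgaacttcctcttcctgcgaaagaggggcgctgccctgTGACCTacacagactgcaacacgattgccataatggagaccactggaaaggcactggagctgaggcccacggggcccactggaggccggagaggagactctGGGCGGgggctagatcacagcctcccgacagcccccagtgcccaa

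Each motif was searched on both strands. The promoter elements were the TATA box, searched as TATAAA, the CAAT box, searched as CCAAT, and the GC box, searched as GGGCGG. The factor motifs were the homeodomain core, searched as TAATTA, the Hox-Pbx composite, searched as TGATNNAT, the site of Cdx proteins, searched as TTTATG, and the core element of nuclear receptors, searched as AGGTCA. Of 32851 RefSeq promoter windows of this length, CCAAT was in 33.8%, GGGCGG in 32.7% and AGGTCA in 14%. Of the 24 windows of Hox genes the shares were higher, at 58.3%, 41.7% and 25%. Hoxd8 held CCAAT starting 62 bases and AGGTCA 135 bases before the start, and Hoxd10 held CCAAT at 26 and AGGTCA at 69 bases, both in the opposite orientation. Hoxd9 held only GGGCGG, at 226 bases on the opposite strand. Hoxc4 held GGGCGG at 45 bases and, on the opposite strand, AGGTCA at 146 bases. None of the 4 windows held TATAAA (12.4% of all), TAATTA (4.84%), TGATNNAT (7.68%) or TTTATG (10.8%), so no motif was shared by the 3 lower genes and lacking from Hoxc4. Base composition differed among the 3 as well, with 44.4% G and C in Hoxd8, 65.2% in Hoxd9 and 65.6% in Hoxd10. It was 62% in Hoxc4, with medians of 52.4% over all windows and 59.2% over the 21 windows of member genes. The window held 6 CpG dinucleotides in Hoxd8, 13 in Hoxd9, 20 in Hoxd10 and 8 in Hoxc4, with medians of 6 over all windows and 13 over those of member genes.

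Hoxd10 (probe set 1418606_at) had signals of 438, 249 and 506 in mesonephros-derived replicates 1, 2 and 3 and of 1089, 1266 and 1137 in ovary-derived replicates 1, 2 and 3. Every ovary-derived value exceeded the highest mesonephros-derived value by more than the spread within either group. The means were 398 ± 133 and 1164 ± 91.6 (SD, n = 3 each), a 2.96-fold lower signal (log2 difference −1.57 ± 0.31 SE). Leaving out any single array gave −1.76 to −1.27, and the spike covariate gave −1.03.

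Hoxd9 (1419126_at) read 5748, 2453 and 4320 in the mesonephros-derived replicates against 5912, 7406 and 8562 in the ovary-derived ones. The groups came close, since mesonephros-derived replicate 1 lay just under ovary-derived replicate 1. The log2 difference was −0.87 ± 0.30 (SE), and −0.53 without mesonephros-derived replicate 2.

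Hoxd8 was read by a pair of probe sets that went the same way. Probe set 1433638_s_at gave 1441, 1740 and 1728 against 2984, 2897 and 2409, a log2 difference of −0.75 ± 0.20 (SE). Probe set 1431099_at gave 3381, 2864 and 2768 against 3800, 3714 and 4070, a smaller difference of −0.36 ± 0.18. Within each group the values of both probe sets were close together, and the groups did not overlap. With the spike covariate they stood at −0.49 and −0.58. All 4 probe sets of Hoxd8, Hoxd9 and Hoxd10 kept a negative difference under quantile normalization and median centring. Groups that do not overlap keep their sign under another pseudocount or with an array left out. The sign under those settings was therefore fixed in advance, and only the size of the difference could change.

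Other Hoxd genes overlapped between the groups, were dim or differed the other way. By RefSeq start Hoxd3 comes next after Hoxd8. Hoxd4, whose number lies between theirs, starts after Hoxd3 and had no probe set under the symbol rule. Hoxd3 (1437664_at) read 117, 185 and 220 against 200, 315 and 367, with a log2 difference of −0.71 ± 0.43 (SE). It overlapped through mesonephros-derived replicate 3 and ovary-derived replicate 1, and its difference stayed negative without any single array, at −0.95 to −0.47. Hoxd11 (1450584_at), the next gene after Hoxd10, read 611, 12.8 and 527 against 49.7, 78.7 and 170. It was high on mesonephros-derived replicates 1 and 3 and the lowest of all on replicate 2, so the difference of 1.03 carried an SE of 1.06. Hoxd12 (1450553_at) read 19.6, 184 and 54.6 against 10.7, 10.8 and 12.2. Those groups did not overlap (1.55 ± 0.60 SE), but only mesonephros-derived replicate 2 lay above the floor, and the difference was 0.88 without it. Hoxd1 and both Hoxd13 probe sets were dim on all 6 arrays, with differences from −0.27 to 0.04.

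In the Hoxc cluster the differences ran the other way. Hoxc4 (1422870_at) read 1399, 1762 and 1690 in mesonephros-derived cells against 1022, 1183 and 1259 in ovary-derived cells. Hoxc8 (1452412_at) read 1427, 1120 and 1462 against 971, 886 and 832. Neither overlapped between the groups, and the log2 differences were small, 0.48 ± 0.22 for Hoxc4 and 0.56 ± 0.23 for Hoxc8 (SE). They lay between 0.39 and 0.58 for Hoxc4 and between 0.49 and 0.68 for Hoxc8 when any single array was left out.

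Hoxc6, a gene of the thoracic level, was read by 3 probe sets. Probe set 1427454_at gave 553, 1621 and 515 against 305, 457 and 250, without overlap (1.21 ± 0.46 SE), and 0.68 without mesonephros-derived replicate 2, which held the highest value. Probe sets 1427362_x_at and 1427361_at overlapped, at 0.65 ± 0.56 and 0.48 ± 0.95, and the latter read 10.4 on mesonephros-derived replicate 1 against 435 and 261 on replicates 2 and 3. Without replicate 2 it turned to −0.32, and 1427362_x_at stood at 0.18.

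The 3 probe sets of Hoxc5 did not tell one story. Probe set 1439885_at gave 649, 839 and 1683 against 408, 347 and 856 (0.95 ± 0.43 SE, and 0.56 without mesonephros-derived replicate 3). Probe set 1450832_at gave 557, 120 and 841 against 380, 441 and 530 (−0.19 ± 0.60), and 1456301_at gave 620, 38.3 and 653 against 142, 345 and 254 (0.20 ± 0.87). The latter pair fell far below the rest on mesonephros-derived replicate 2, where the first did not. Both changed sign when single arrays were left out, and 1450832_at stood at 0.60 without replicate 2.

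**Figure D2:**
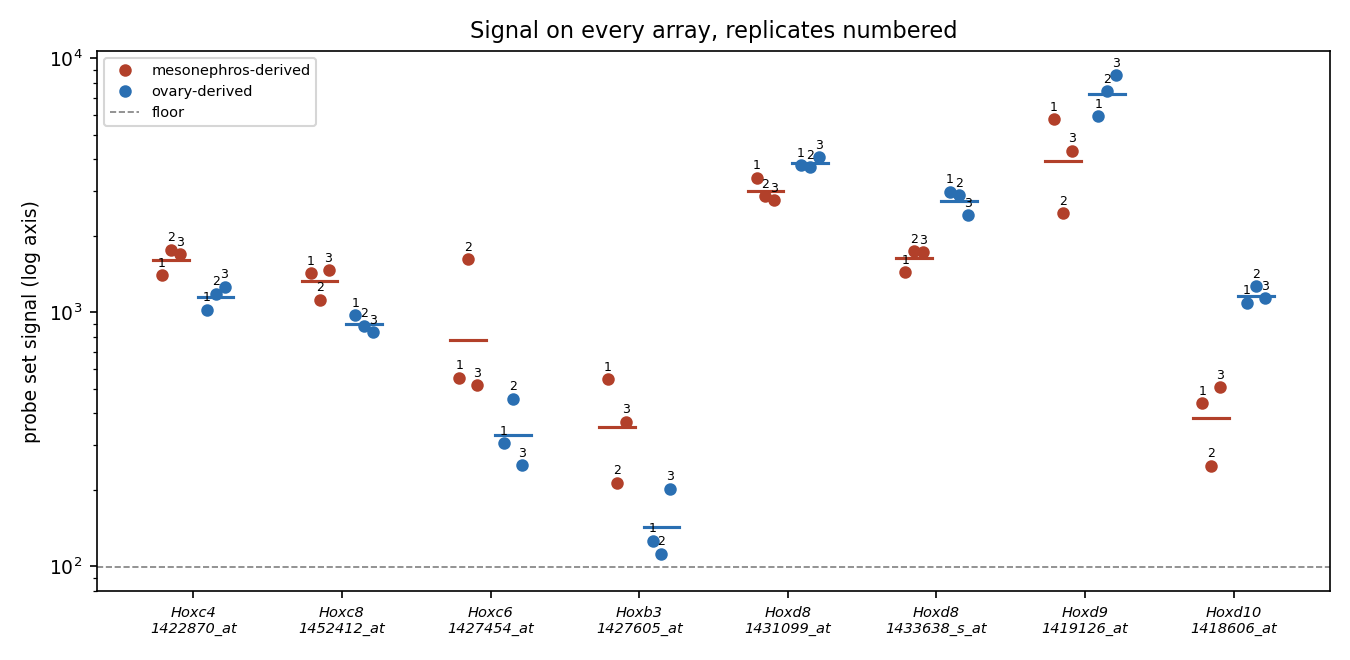
Signal of 8 Hox probe sets (y axis, log axis) on every array, with mesonephros-derived arrays in red, ovary-derived arrays in blue and replicate numbers beside the points. Horizontal bars are group means taken on the log2(signal + 16) scale, and the dashed line is the floor of 99.4. The red points of Hoxc4, Hoxc8, Hoxc6 and Hoxb3 lie above the blue ones, and those of Hoxd8, Hoxd9 and Hoxd10 lie below them.

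Among Hoxb genes, Hoxb3 (1427605_at) read 545, 213 and 371 against 126, 112 and 202. All mesonephros-derived values lay above all ovary-derived ones, though replicate 2 only just did, and the log2 difference was 1.22 ± 0.46 (SE). Its other probe set, 1456229_at, read 126, 281 and 338 against 181, 167 and 252 and overlapped (0.21 ± 0.47, or −0.05 without mesonephros-derived replicate 3).

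Hoxb4 also had a pair of probe sets. Probe set 1451761_at read 159, 88.3 and 141 against 66.8, 66.9 and 69.6, all of the ovary-derived values lying below the floor, and its mean was at least 1.23-fold higher. Probe set 1460379_at, the brighter of the pair, read 258, 418 and 466 against 267, 388 and 294 and overlapped (0.23 ± 0.36).

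Hoxb6 (1451660_a_at) read 597, 563 and 216 against 103, 197 and 238. It overlapped through mesonephros-derived replicate 3, with a difference of 1.22 ± 0.50 (SE) that turned to −0.43 with the spike covariate. The spike signal was itself high on replicates 1 and 2, where Hoxb6 was high. Hoxb5 (1418415_at) stood at 0.68 ± 0.57, at 0.31 without mesonephros-derived replicate 1 and at 1.22 without replicate 2. Hoxb9 (1452317_at) stood at −0.22 ± 0.54, the single negative difference of the cluster, which was 0.31 without mesonephros-derived replicate 1. Hoxb2 read 170, 103 and 79.3 against 27.7, 64.2 and 88.7, with overlap and a mean over all arrays below the floor. Its difference was 0.84 ± 0.55, and its mesonephros-derived mean was at least 1.11-fold higher. Hoxb1, Hoxb7 and Hoxb13 lay below the floor on every array, with differences of 0.08 to 0.47.

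Hoxa3 stood out in the Hoxa cluster by 1 of its 4 probe sets. Probe set 1431392_at read 280, 650 and 149 in mesonephros-derived cells and 37.3, 36.3 and 73.0 in ovary-derived cells, where all 3 values lay below the floor. Its signal was at least 2.76-fold higher against that floor (measured log2 difference 2.34 ± 0.60 SE), and the difference was 0.68 with the spike covariate. The brightest Hoxa3 probe set, 1452421_at, read 342, 1427 and 1013 against 284, 433 and 763 and overlapped, with a difference of 0.78 ± 0.53 that was 0.36 without mesonephros-derived replicate 2. The other two Hoxa3 probe sets stood at 0.36 ± 0.52 and 0.15 ± 0.59. So the size of the Hoxa3 difference depended on the probe set, and all 4 were positive with every array included. The sign of 1427433_s_at turned, to −0.03 without mesonephros-derived replicate 2 and to −0.10 with the spike covariate.

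Hoxa5 was read in opposite directions. Probe set 1448926_at gave 504, 168 and 174 against 79.0, 140 and 152, without overlap, at 0.96 ± 0.54 (SE). It was 0.46 without mesonephros-derived replicate 1 and −0.01 with the spike covariate. Probe set 1443803_x_at gave 37.3, 31.0 and 237 against 118, 116 and 190, a difference of −0.84 ± 0.69. Of the 11 Hox genes with several probe sets, 5 had probe sets with both signs.

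Other Hoxa genes were dim or overlapped. Hoxa7 (0.98 ± 0.49 SE) and Hoxa11 (−1.26 ± 0.44 SE) did not overlap between the groups, but all 6 of their values lay below the floor, at 74.6 to 92.4 against 16.8 to 48.4 for Hoxa7 and 7.87 to 31.8 against 56.3 to 69.7 for Hoxa11. Hoxa11 is a regulator of uterine development. Hoxa2 and both Hoxa4 probe sets stood between −0.45 and 0.13, both Hoxa10 probe sets, a gene of the uterus, at −0.03 and 0.56, and Hoxa13 at 0.84 ± 0.53. Each of these had a mean below the floor.

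A second pattern ran within the mesonephros-derived group, mostly in posterior genes. It was noted after the values had been seen. Hoxc10 (1439798_at) read 1177, 47.8 and 2977 in mesonephros-derived replicates 1, 2 and 3 against 132, 427 and 113 in ovary-derived cells. Hoxc9 (1449867_at) read 351, 21.9 and 916 against 97.3, 247 and 148. Hoxa9 (1421579_at) read 594, 26.8 and 180 against 98.6, 133 and 70.0. Like Hoxd11, these genes were above every ovary-derived array on mesonephros-derived replicates 1 and 3 and below every ovary-derived array on replicate 2.

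On replicate 2, 7 of the 48 Hox probe sets (14.6%) lay at least 2 log2 units below both other mesonephros-derived arrays, against 1.07% of all probe sets. They were both probe sets of Hoxa9, 2 of the 3 of Hoxc5, and those of Hoxc9, Hoxc10 and Hoxd11. On replicate 1 this held for 1 Hox probe set, where 3.17% of all probe sets did so, and on replicate 3 for 0, where 0.506% did. The group difference of these genes therefore rested on which replicates were counted. Hoxc10 stood at 1.59 ± 1.17 (SE), at 3.22 without replicate 2, at 0.44 without replicate 3 and at 5.05 with the spike covariate. Hoxc9 stood at 0.47 ± 0.99, at 1.79 without replicate 2, at −0.52 without replicate 3 and at 3.14 with the spike covariate. Hoxd11 was 2.47 without replicate 2 and 0.25 without replicate 1, and Hoxa9 was 1.61 and −0.31.

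Hoxd9 and Hoxd10, of the same axial level, were also lowest on replicate 2, but there replicates 1 and 3 lay below the ovary-derived arrays too. Replicate 2 was not low throughout the family: Hoxa3 (1431392_at), Hoxc6 (1427454_at) and Hoxd12 had their highest values on it. Signals of some other cell types differed between the same replicates. The summed signal of 5 macrophage markers was 383, 5095 and 2195 in mesonephros-derived replicates 1, 2 and 3 against 3177 to 4535 in ovary-derived cells, and that of 6 endothelial markers was 1056, 3738 and 1342 against 2926 to 4488. Of the macrophage markers 2 of 5 and of the endothelial markers 2 of 6 were lower without overlap, as were 10.6% of all probe sets, and in neither list did a marker lie below the floor on all arrays. Pax8, Epcam, Cdh1 and Foxj1, 4 of 6 markers of oviduct and Mullerian tract epithelium, lay below the floor on every array, and the list summed to 171 to 195 against 300 to 429. Of the others on that list, Ovgp1 overlapped, and Emx2 read 73.4, 129 and 36.8 against 253, 231 and 187. Of the 3 tubule epithelium markers found, Lhx1 and Gata3 lay below the floor on every array. Cdh16 lay above it on every array, at 150, 318 and 175 against 104, 148 and 192, with overlap. The 5 granulosa markers found summed to 5539, 6496 and 5620 against 4964 to 6471, and none separated the groups. Among them Fshr lay below the floor on every array, and Amh read 511, 234 and 33.4 against 20.7 to 34.7. The part of these cell types in the Hox values was not tested.

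**Figure D3:**
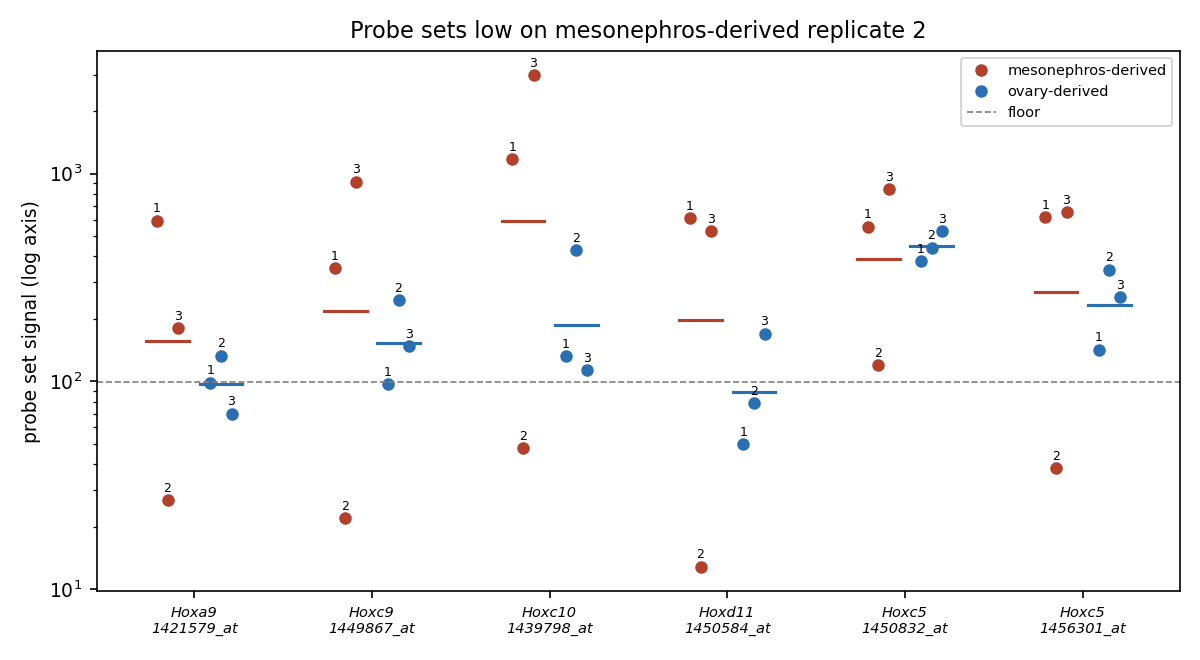
Signal (y axis, log axis) of 6 Hox probe sets that lay at least 2 log2 units lower on mesonephros-derived replicate 2 than on replicates 1 and 3. Red points are mesonephros-derived and blue points ovary-derived arrays, with replicate numbers beside them, bars are group means on the log2(signal + 16) scale and the dashed line is the floor. Replicate 2 lies below all 3 ovary-derived arrays in each probe set, and replicates 1 and 3 lie above all 3.

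Paralogs of equal number could be set against each other within an array, which cancels any error in the scaling of that array. The offset between a pair of probe sets has no meaning by itself, and only its shift between the groups is read. Every probe set with a mean above the floor in both groups was set against each Hoxd probe set of its number for which the same held, which gave 9 pairs of probe sets. The pairs were formed with the lower Hoxd values known and share Hoxd probe sets, so their shifts are a description. For paralog number 8, the log2 signal of Hoxc8 minus that of Hoxd8 (1433638_s_at) was −0.01, −0.63 and −0.24 in mesonephros-derived cells and −1.60, −1.69 and −1.52 in ovary-derived cells. The groups did not overlap, with means of −0.29 ± 0.31 and −1.60 ± 0.09 (SD, n = 3), a shift of 1.31. With the other Hoxd8 probe set the shift was 0.93, again without overlap. The offset was higher on every mesonephros-derived array than on any ovary-derived one. For paralog number 3, 3 of 4 pairs separated the groups in the same way. Hoxb3 (1427605_at) minus Hoxd3 was 2.08, 0.19 and 0.71 against −0.61, −1.38 and −0.82, a shift of 1.93. The shift was 0.92 with the other Hoxb3 probe set, also without overlap, although that probe set and Hoxd3 overlapped when taken alone. Hoxa3 gave shifts of 1.49 without overlap (1452421_at) and of 1.07 with overlap (1427433_s_at).

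For paralog number 10, Hoxc10 minus Hoxd10 was 1.39, −2.05 and 2.52 against −2.90, −1.53 and −3.16. The shift was larger at 3.15, but replicate 2 lay among the ovary-derived arrays and the groups overlapped. For paralog number 9, the shifts of Hoxb9 and Hoxc9 against Hoxd9 were 0.65 and 1.34, and both overlapped. Hox paralogs of number 13, which mark the most caudal level, had a mean below the floor in all 4 clusters, on 5 probe sets. Hoxc13 stood at 0.59 ± 0.50 (SE), and those of Hoxa13, Hoxb13 and Hoxd13 are given with their clusters.

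**Figure D4:**
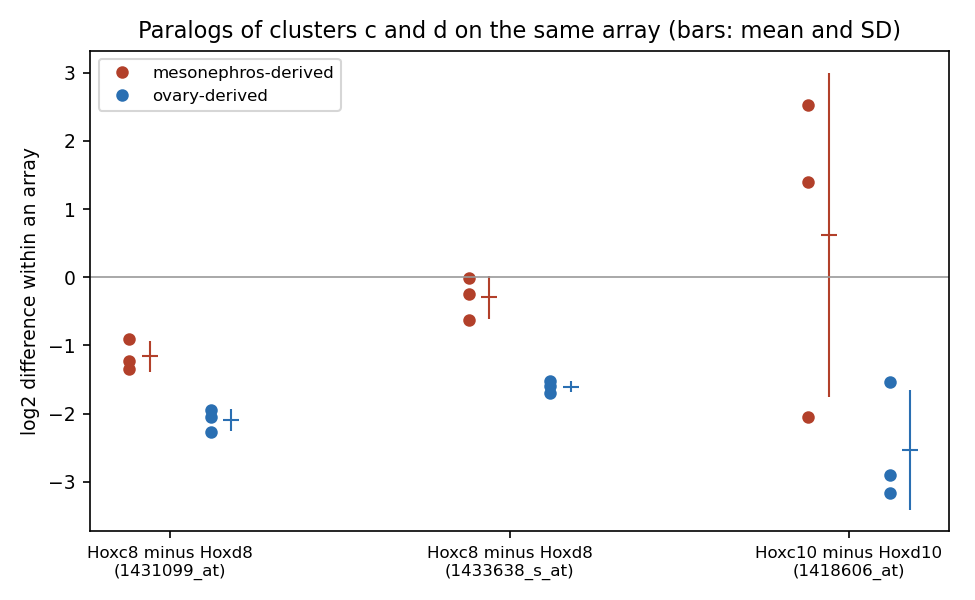
Log2 signal of a Hoxc gene minus that of its Hoxd paralog on the same array (y axis) for 3 pairs of probe sets, with the Hoxd probe set in brackets. Points are arrays, red for mesonephros-derived and blue for ovary-derived cells, and crosses with bars give the mean and SD of 3 arrays. Both Hoxc8 pairs separate the groups, and mesonephros-derived replicate 2 lies at −2.05 in the Hoxc10 pair, among the ovary-derived points.

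Genes that set or read Hox expression were taken from a list of 52, of which 49 were found, on 103 probe sets. It holds the TALE cofactors that bind DNA beside Hox proteins, Polycomb proteins that keep Hox genes silent, Trithorax proteins that keep them active, Cdx factors and the retinoic acid system. The rest of the list is not analysed here. In limma 0 of the 103 probe sets passed an adjusted p of 0.05 over all probe sets (smallest 0.271), and at an unadjusted p of 0.05 there were 4 higher and 8 lower, against 2195 and 2901 of all 45037 probe sets. With a median difference of 0.02 the list was split evenly, with 53 positive and 50 negative differences, and 8 probe sets lay wholly above and 8 wholly below, against 8.22% and 10.6% of all probe sets.

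Among these, 3 probe sets above the floor differed by at least 1 log2 unit without overlap. Men1, the menin subunit that tethers the Trithorax methyltransferase Kmt2a to Hox loci, read 1320, 1319 and 885 against 579, 513 and 609 (1416348_at, 1.01 ± 0.26 SE), and its other probe sets stood at 0.33 and 0.40. Wdr5, a shared subunit of these methyltransferase complexes, read 350, 143 and 582 against 822, 643 and 634 (1448389_at, −1.12 ± 0.46), with its other probe set at −0.21. Pknox1, a TALE cofactor, read 327, 374 and 671 against 971, 1077 and 695 (1450172_at, −1.02 ± 0.34), with others at −0.66 and −0.26. For each gene the other probe sets differed by less. The 3 probe sets were picked by size and lack of overlap in this same contrast, so nothing is read from them about a complex.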

How the data were processed

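The arrays measured RNA of 3 Mesonephros_theca and 3 Ovary_theca samples. The authors deposited linear signal intensity values, 1 per probe set, and the submitters' processing notes name MAS5. No source used here gives its version or parameters. The trimmed mean (2% at each end) was 500 on every array. RNA was amplified from equal volumes, per the labels' protocols.

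Of 45101 probe sets, 64 controls were left out. Probe sets were named from the platform annotation, where 34945 had 1 symbol, 932 several and 9160 none, and all 48 members matched RefSeq (GRCm38.p6) by gene identifier. Values were moved to log2(signal + 16) without further normalization and fitted with limma 3.58.1 in R 4.3.3 (lmFit, eBayes with trend, group as the only factor) over all 45037 probe sets, and the fit was tested on simulated data. Where all arrays of 1 group lay below the floor, the fold is given as a bound against it, or not at all where the other group's mean was also below; the log2 difference beside it is the measured one. The number of arrays limits the precision. No arrays were identical.

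Members and lists were chosen with earlier results of these data known. The naming rule gave every array's value for Hox probe sets whose mean lay at or above the 60th percentile (a signal of 272), or whose groups did not overlap with at least 1 array above the floor, and others where a pattern turned on them. Regulators were named where groups did not overlap, the mean was above the floor and the difference was at least 1. Alternatives were pseudocounts of 1 and 64, floors, quantile normalization, median centring, 1 probe set per gene, no _x_at, _s_at or _a_at probe sets, a covariate for the poly-A spikes, the replicate number as a block, other eBayes settings, array weights and leaving out each array.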

Additional observations from a re-analysis of the deposited data

How the results depend on the processing

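Under every alternative 0 Hox probe sets and 0 probe sets of the regulator list passed an adjusted p of 0.05, with 0.0775 (array weights) as the smallest adjusted p of a Hox probe set. Hox probe sets without overlap numbered 15, where 8.22% of all probe sets lay wholly above and 10.6% wholly below. They numbered 7 with a floor at the 60th percentile, which leaves 12 members, and 15 to 24 without single arrays. Groups with fewer arrays separate more easily. The share of all probe sets was not taken under these settings, so nothing is read from the changes. Medians that shifted by more than 1 SD between replicates are given here, with the range over left-out arrays. Over all Hox probe sets the median was 0.66 with the poly-A spike covariate, 0.29 with a pseudocount of 64 and 0.20 to 0.48 without single arrays. The anterior median was 0.57 and 0.78 with floors at the 40th and 60th percentile and −0.03 to 0.61 without single arrays, and the central one 0.71 with the spike covariate and 0.26 to 0.57. The posterior median was −0.87 with the 60th percentile floor, 0.02 with the spike covariate, 0.22 with a pseudocount of 64 and 0.15 to 0.57 without single arrays. Hoxa stood at 0.78 with either floor, 0.18 with the spike covariate, 0.25 with a pseudocount of 64 and −0.01 to 0.55 without single arrays. Hoxb stood at 0.23 with the 60th percentile floor, 0.76 with the spike covariate and 0.74 and 0.21 with pseudocounts of 1 and 64. Hoxc stood at 1.11 with the spike covariate and 0.44 to 1.07 without single arrays. Hoxd stood at −0.73 and −0.81 with the floors and −0.60 with a pseudocount of 1. Floors left fewer members. Above the 60th percentile the anterior and Hoxa values were both that of Hoxa3 probe set 1452421_at alone. The Hoxb value there was that of Hoxb4 probe set 1460379_at alone. The posterior value there was that of Hoxd9, which lay between Hoxc10 and Hoxd10. For the other shifts the cause was not tested. Of 432 values of 29 single probe sets 419 stayed within 1 SD, and 15, on 10 probe sets, fell on the other side of 0.

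Deviations from the group mean correlated at 0.00, 0.04 and 0.02 between same-numbered replicates. Such values over all probe sets cannot show whether samples of equal number were paired, and the labels do not say. With the replicate number as a block the Hox median stayed 0.47, with 0 Hox probe sets and 5 instead of 2 of all probe sets called.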

Other observations

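Some probe sets within the Hox clusters fell outside the symbol rule. Antisense transcripts overlap their partner genes, and the strand each probe set reads was not checked. Hoxd3os1 (1460056_at) had signals of 4819, 2197 and 2794 in mesonephros-derived replicates 1, 2 and 3 and of 2394, 3619 and 4412 in ovary-derived ones, with overlap (log2 difference −0.12 ± 0.32 SE), and its other probe set stood at −0.42 ± 0.46. Hoxb5os (1447886_at) read 145, 315 and 55.5 against 28.5, 40.5 and 84.5, with 4 of 6 arrays below the floor, all ovary-derived ones among them. The groups overlapped, and the mesonephros-derived mean was at least 1.35-fold higher (measured log2 difference 1.31 ± 0.66 SE). Both Hoxa11os probe sets lay below the floor on all 6 arrays. A pair of probe sets assigned to both Hoxd3 and Hoxd4, which lie at the 3′ side of Hoxd8, stood at −0.09 ± 0.38 and 0.35 ± 0.29 and overlapped between the groups. The probe set assigned to both Hoxb7 and Hoxb8 lay below the floor on every array.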
